A study of Mus musculus with 4 samples.

Results

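Neurotrophic factor receptors are the cell surface proteins through which developing neurons receive survival and growth signals from their targets and neighbours. The genes described here were chosen by name from the deposited table, where 6 of the 7 names had a row, Ret, Gfra1, Gfra3, Ngfr, Ntrk2 and Ntrk3, out of 11747 rows in all. Gfra2 had no row and was not analysed. Ligands of the GDNF family bind a GFRα co-receptor anchored in the outer membrane, and the pair then engages RET, the shared receptor tyrosine kinase that carries the signal into the cell. Neurotrophins bind the TRK receptor tyrosine kinases and, separately, p75, a receptor of the tumour necrosis factor receptor family that Ngfr encodes. In the embryonic spinal cord RET and GFRα1 are known as receptors of motor neurons for GDNF, and p75 is a familiar surface marker of young motor neurons.

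Expression was measured by RNA sequencing of total RNA from mouse motor neuron cultures with doxycycline or with vehicle, 2 libraries in each group. All cultures derived from the A172LoxP embryonic stem cell line, into which a transgene for a transcription factor had been placed under the control of doxycycline, an antibiotic that here serves to switch it on. Both groups carry the transgene. Embryoid bodies, floating aggregates of these cells, were patterned for 2 days with retinoic acid at 0.5 µM and purmorphamine, which activates Sonic hedgehog signalling, at 1 µM. They then received 2 µg/mL doxycycline, or vehicle, for a further 2 to 3 days. The comparison addresses how the induced factor alters gene expression in motor neuron cultures. No group received doxycycline without the transgene. An effect of the antibiotic itself therefore cannot be told apart from that of the induced factor. The labels do not say that the 2 libraries of a group are separate cultures, nor whether the cells derive from 1 clone, so p-values reflect only library to library spread, possibly technical.

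The doxycycline libraries carry the numbers 2 and 8 in the table and the vehicle libraries the numbers 1 and 7. Values are normalized read counts, that is gene counts divided by a size factor for each library, and they summed to between 26449555 and 27047458 per library, with 22434755 to 30235763 estimated reads behind them. The receptors had between 74 and 6655 estimated reads per library. Levels of different genes are not compared below, since the values are not scaled by transcript length. Of 8 motor neuron markers 7 were listed in the table. A row alone does not bear out the motor neuron label, since all 8 neural progenitor markers and all 5 pluripotency markers were listed too. With doxycycline 6 of these 7 fell, as described below. Their summed level was 4182 to 4916 normalized counts with doxycycline and 10884 to 11135 with vehicle, and the choline transporter gene Slc5a7 was not listed. The marker gene Lhx3, which did not fall, gave 1819 and 1546 of the sums in doxycycline libraries 2 and 8. In vehicle libraries 1 and 7 it gave 1352 and 974.

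Ret and Ngfr fell with doxycycline, to 35.1% and 37.2% of their vehicle means, and the other 4 receptors did not pass the test. The GDNF receptor kinase fell and its co-receptor Gfra1 did not pass, and among the neurotrophin receptors p75 fell and TrkB and TrkC did not pass. The exact test run on the differences between receptors cannot pass with 2 libraries in each group.

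Ret, the signalling receptor of the GDNF family, was measured at 1088 and 1047 normalized counts in doxycycline libraries 2 and 8, against 3305 and 2783 in vehicle libraries 1 and 7. Both doxycycline libraries lay far below both vehicle libraries, and the groups did not overlap. Ret averaged 1068 ± 29.1 normalized counts with doxycycline and 3044 ± 369 with vehicle (SD, n = 2 each). The log2 change of normalized count + 1 was -1.51 ± 0.10 (SE, limma, adjusted p = 0.00743). The call stood whichever library was left out, with changes between -1.63 and -1.38. The row joins 2 RefSeq transcripts, so the isoforms of RET that differ in their tail cannot be told apart.

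Gfra1 encodes the co-receptor that binds GDNF and presents it to RET. It was measured at 469 and 389 normalized counts in doxycycline libraries 2 and 8, against 573 and 524 in vehicle libraries 1 and 7. Both doxycycline libraries were below both vehicle libraries, although the gap between the groups was narrower than the gap between the doxycycline libraries. The mean was 429 ± 56.7 with doxycycline and 548 ± 34.6 with vehicle (SD, n = 2 each). The log2 change of -0.36 ± 0.13 did not pass the test (limma, adjusted p = 0.199). Its 95% interval, from -0.68 to -0.04, spans levels between 62.5% and 97.4% of vehicle.

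Gfra3 encodes the co-receptor for artemin, best known in sympathetic and pain-sensing neurons. It was measured at 162 and 65.3 normalized counts in doxycycline libraries 2 and 8, against 253 and 101 in vehicle libraries 1 and 7. The libraries of a group differed more than the groups did, and library 2 lay above library 7, so the groups overlapped. The log2 change was -0.63 ± 0.57 (limma, adjusted p = 0.575), with a 95% interval from -2.03 to 0.77. Without library 8 the value was 0.015 and without library 1 it was 0.026.

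Ngfr, the gene of p75, was measured at 2228 and 1633 normalized counts in doxycycline libraries 2 and 8, against 5947 and 4442 in vehicle libraries 1 and 7. Every doxycycline value was below every vehicle value, with a wide gap between them. The mean was 1930 ± 421 with doxycycline and 5195 ± 1065 with vehicle (SD, n = 2 each). The log2 change was -1.43 ± 0.19 (limma, adjusted p = 0.0301). The call was lost without library 8, where the change was -1.21 (limma, adjusted p = 0.0911), and it stood without library 2, 1 or 7. It was also lost with no intensity trend in the fit (adjusted p = 0.0795) and with robust empirical Bayes (adjusted p = 0.0614).

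Ntrk2 encodes TrkB, the receptor for BDNF and neurotrophin 4. Its level was 146 and 141 normalized counts in doxycycline libraries 2 and 8, against 170 and 127 in vehicle libraries 1 and 7. The doxycycline libraries lay between the vehicle libraries. The log2 change was -0.03 ± 0.21 (limma, adjusted p = 0.953), and its 95% interval, from -0.54 to 0.48, spans 69.0% to 139% of vehicle. The row joins transcripts for isoforms a and b, so forms of TrkB with and without the kinase cannot be told apart.

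Ntrk3 encodes TrkC, the receptor for neurotrophin 3. Its level was 204 and 160 normalized counts in doxycycline libraries 2 and 8, against 192 and 144 in vehicle libraries 1 and 7, and the groups overlapped. The log2 change was 0.12 ± 0.22 (limma, adjusted p = 0.806), with a 95% interval from -0.42 to 0.66, or 74.7% to 158% of vehicle. This row also joins 2 RefSeq transcripts, so forms of TrkC cannot be told apart. A fall as large as that of Ret or Ngfr lies outside the intervals of Ntrk2 and Ntrk3.

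**Figure D1:**
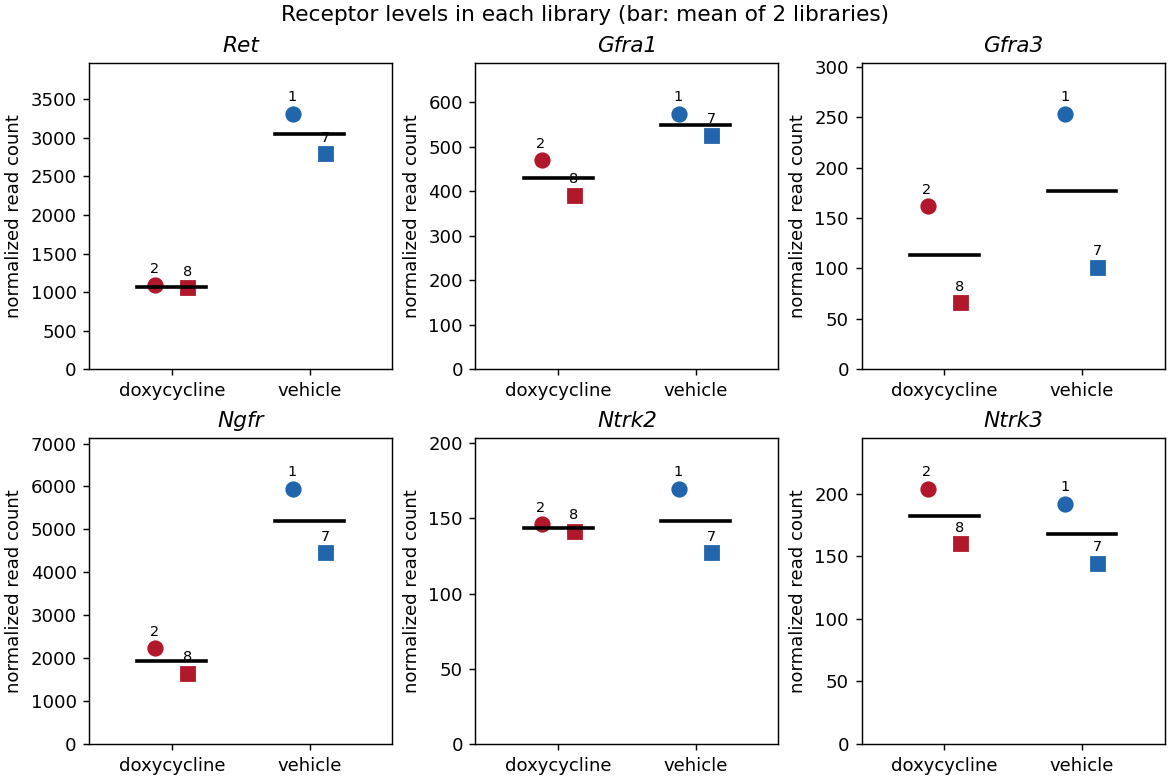
Normalized read counts of the 6 receptors in each library (y axis, from 0), with doxycycline libraries 2 and 8 on the left and vehicle libraries 1 and 7 on the right; points are single libraries and bars are means of 2. Ret and Ngfr are far lower with doxycycline, Gfra1 is slightly lower without overlap, and the groups overlap for Gfra3, Ntrk2 and Ntrk3.

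Promoter windows of 3 receptors are shown, that of Ngfr, which fell, and those of Gfra1 and Ntrk2, which did not pass the test. Ret and Ntrk3 had no match in the RefSeq promoter table, and the window of Gfra3 is not reported here. Each window runs from 250 bases before to 50 bases after the annotated start in RefSeq on GRCm38.p6, while the table was built on mm9, so they give context only. They lie at chr11:95587649-95587948 on the minus strand for Ngfr, chr19:58455349-58455648 on the minus strand for Gfra1 and chr13:58806319-58806618 on the plus strand for Ntrk2. Capitals mark the E-box CAGCTG, a motif class read by neuronal bHLH factors.
Ngfr: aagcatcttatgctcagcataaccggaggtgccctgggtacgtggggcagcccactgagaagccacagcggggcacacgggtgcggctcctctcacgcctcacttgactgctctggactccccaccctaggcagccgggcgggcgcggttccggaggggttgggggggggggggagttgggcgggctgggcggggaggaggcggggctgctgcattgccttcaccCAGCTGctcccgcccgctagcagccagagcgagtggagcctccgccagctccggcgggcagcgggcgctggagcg
Gfra1: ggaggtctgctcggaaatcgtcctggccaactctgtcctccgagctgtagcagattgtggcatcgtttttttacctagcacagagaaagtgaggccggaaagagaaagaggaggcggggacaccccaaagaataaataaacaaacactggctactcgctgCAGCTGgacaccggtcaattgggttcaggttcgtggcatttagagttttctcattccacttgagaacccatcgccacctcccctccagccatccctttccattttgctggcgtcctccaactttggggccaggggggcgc
Ntrk2: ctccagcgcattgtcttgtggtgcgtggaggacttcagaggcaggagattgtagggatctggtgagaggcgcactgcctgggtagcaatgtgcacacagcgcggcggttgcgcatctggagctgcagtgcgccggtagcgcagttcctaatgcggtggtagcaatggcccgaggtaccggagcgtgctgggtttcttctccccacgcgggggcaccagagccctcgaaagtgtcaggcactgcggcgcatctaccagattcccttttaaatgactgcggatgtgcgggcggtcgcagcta
The E-box was found 1 time in the Ngfr window, at position -25 from the start, and 1 time in the Gfra1 window, at position -90, and not in the Ntrk2 window. It was present in 16.3% of all 32851 promoter windows of the same length. TAATTA, a core motif of homeodomain factors held by 5.29% of windows, was found in none of the 3, and neither was the inverted repeat bound by EBF factors, held by 0.904%. Each of these motifs reads the same on both strands, and none overlapped another here. The windows also differed in base composition, with 71.7% G and C in that of Ngfr, 54.0% in that of Gfra1 and 61.3% in that of Ntrk2.

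Over all rows 2.37% passed the test (adjusted p under 0.05), made up of 1.79% lower and 0.579% higher with doxycycline. Among the receptors 2 of 6 passed, both lower. The groups did not overlap for 3 of the 6, all lower, against 53.2% of all rows in either direction, 26.5% lower and 26.7% higher. The median log2 change was -0.50 over the 6 receptors and 0.0024 over all rows. Ordered from the most negative change, Ret stood at place 38 and Ngfr at place 44 of 11747, Gfra3 at 324, Gfra1 at 865, Ntrk2 at 5018 and Ntrk3 at 8524. The receptors were named with earlier results of these data known, so these places are a description.

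The balance between receptor and co-receptor was also followed within each library. The ratio of Ret to Gfra1 normalized counts was 2.32 and 2.69 in doxycycline libraries 2 and 8, against 5.77 and 5.31 in vehicle libraries 1 and 7. On the log2 scale the difference between doxycycline and vehicle was -1.15, without overlap. The ratio of Ngfr to Ntrk3 was 10.9 and 10.2 with doxycycline, against 31.0 and 30.9 with vehicle, and that of Ngfr to Ntrk2 was 15.2 and 11.6, against 35.0 and 35.1. These ratios compare libraries, not the amounts of the 2 transcripts, since neither value is scaled by length. The ratio of Ret to Ngfr was 0.488 and 0.641 with doxycycline and 0.556 and 0.627 with vehicle. The vehicle values lay between the doxycycline values, which differed more, so the groups overlapped. All 15 pairs of receptors were compared. With 2 against 2 libraries the exact two-sided permutation test cannot go below p = 0.333, and the smallest adjusted value was 0.625, so no pair could pass.

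All 6 receptors were higher in library 2 than in library 8, and all 6 were higher in library 1 than in library 7. Over all rows 51.6% and 51.9% were higher in those libraries. The gap was widest for Gfra3, where library 8 held 0.404 of the level of library 2 and library 7 held 0.399 of that of library 1. For Ngfr the same ratios were 0.733 and 0.747. Ret differed least between the doxycycline libraries of the receptors that passed, with a ratio of 0.962, and had a ratio of 0.842 between the vehicle libraries. Markers of pluripotent stem cells, the cells from which the cultures were made, showed gaps of the same kind, and 4 of the 5 were higher in library 2 than in 8 and in library 1 than in 7. The pluripotency factor gene Pou5f1 was at 243 and 101 normalized counts in doxycycline libraries 2 and 8, against 307 and 141 in vehicle libraries 1 and 7. All 5 pluripotency markers were listed and summed to 1488 to 1971 with doxycycline and 1715 to 2354 with vehicle, and their part in the Gfra3 values was not tested. Neuron markers showed such gaps too. For all neurons the mean log2 marker level was 12.10 (library 2) against 11.87 (library 8), and 13.01 (library 1) against 12.87 (library 7). Only Nefm went the other way. The mean of the motor neuron markers fell from 8.99 (library 2) to 8.81 (library 8), but was 10.42 (library 1) against 10.44 (library 7). The part of neuron content in the receptor gaps was not tested either.

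**Figure D2:**
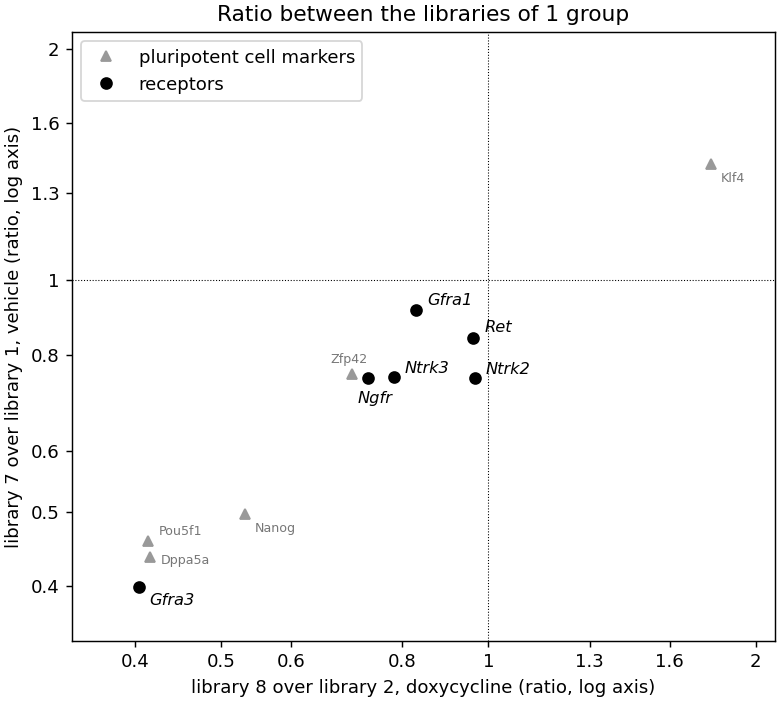
Ratio of library 8 to library 2, both with doxycycline (x axis, log scale), against the ratio of library 7 to library 1, both with vehicle (y axis, log scale), for the 6 receptors (black circles) and 5 pluripotency markers (grey triangles). All 6 receptors lie below 1 on both axes, and Gfra3, at 0.404 and 0.399, lies near Pou5f1 and Dppa5a. Markers of other cell types are not shown.

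The cultures hold several cell types, and in such bulk samples fewer motor neurons and less receptor RNA per motor neuron cannot be told apart. Of the 7 listed motor neuron markers 6 fell, with a median log2 change of -1.63, among them Isl1, Isl2 and Mnx1, transcription factors of motor neurons, and Chat and Slc18a3, the genes for making and loading acetylcholine. The exception was Lhx3, a LIM factor that motor neurons share with V2a interneurons, at 0.55 ± 0.17 (limma, adjusted p = 0.155). Of the 10 markers of all neurons 9 fell, with a median of -0.86. Without library 8 the motor neuron count was 5, with the call of Chat lost, and the count for all neurons was 3, which was 6 without library 2 or 1 and 10 without library 7. Measured against the mean log2 level of the motor neuron markers in the same library, Ret differed by 0.02 and Ngfr by 0.10 between doxycycline and vehicle, and the groups overlapped for both. Those values depend on Lhx3. Without it, in an alternative chosen after seeing the data, Ret was higher by a log2 difference of 0.37 and Ngfr by one of 0.45, without overlap. Against the mean of the markers of all neurons, Ret was lower by a log2 difference of -0.55 and Ngfr by one of -0.48, without overlap. The same measure put Gfra1 at 1.17 above the vehicle value relative to motor neuron markers and at 0.60 relative to all neurons. For Ntrk2 these differences were 1.50 and 0.92, and for Ntrk3 they were 1.65 and 1.07, and the groups did not overlap for these 3 receptors. Gfra3 differed by 0.90 and 0.32, with overlap. They restate the falls of the markers beside receptors that did not pass the test, and no p-value is given for them.

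Markers of other cell types that can carry these receptors gave a mixed picture. Of 6 neural crest and sensory neuron markers 2 were listed, with summed levels of 890 to 1006 normalized counts with doxycycline and 921 to 1684 with vehicle, and the defining crest genes Sox10 and Foxd3 were not listed, nor were Tlx3 and Prdm12. The sensory neuron factor gene Pou4f1 was at 562 and 268 with doxycycline, against 1413 and 501 with vehicle, a change of -1.11 ± 0.54 (limma, adjusted p = 0.309). None of the 8 neural progenitor markers passed, but 7 of the 8 values were above 0, with a median log2 change of 0.33. Their mean log2 level was 11.11 and 11.25 in doxycycline libraries 2 and 8, against 10.85 and 10.96 in vehicle libraries 1 and 7, without overlap. Among them Sox1, Sox2 and Pax6, transcription factors of neural progenitors, had values of 0.50 ± 0.10, 0.43 ± 0.11 and 0.52 ± 0.17, each without overlap (limma, adjusted p = 0.0740, 0.114 and 0.161). Lack of overlap, here and below, was common, since it held for 53.2% of all rows, 26.7% higher and 26.5% lower. The summed level of the 8 progenitor markers was 33399 to 37279 normalized counts with doxycycline and 32594 to 33933 with vehicle. The intermediate filament gene Vim made up most of that sum, with 18969 and 21996 normalized counts with doxycycline, against 19928 and 20477 with vehicle. Of the astrocyte and oligodendrocyte lineage markers 4 of 7 were listed, without Gfap, Aqp4 and Aldh1l1, with sums of 4207 to 5288 with doxycycline and 4421 to 6142 with vehicle, and 2 of the 4 values were below 0. Slc1a3, a glutamate transporter gene of radial glia and astrocytes, rose, at 0.52 ± 0.08 (limma, adjusted p = 0.0413). Mbp, a myelin gene, had a change of -0.51 ± 0.10 without overlap (limma, adjusted p = 0.0679). Of the mesoderm, endoderm and vessel markers 9 of 10 were listed, without Pecam1, with sums of 8335 to 13935 with doxycycline and 9623 to 13761 with vehicle, and 5 of the 9 values were below 0. The apolipoprotein gene Apoe rose, at 0.54 ± 0.08 (limma, adjusted p = 0.0405). The endothelial genes Cdh5 and Kdr had changes of -0.72 ± 0.15 and -0.85 ± 0.21, both without overlap (limma, adjusted p = 0.0789 and 0.106). Col1a2 and Col1a1 went the other way, at 0.87 ± 0.28 and 0.31 ± 0.11, also without overlap (limma, adjusted p = 0.159 and 0.187). The part of any of these cell types in the falls of Ret and Ngfr was not tested.

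The rest of the neurotrophic pathway was followed through 6 lists with 90 genes, of which 73 were listed. Over these 6 genes fell and none rose in limma, which is 8.22% of those listed, against 1.79% lower over all rows. The lists were chosen with earlier results known, so the 2 shares are a description. The median log2 change was -0.05. In each case the fall had the same direction without any single library.

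Of 8 ligands of the GDNF and neurotrophin families only Ntf3 was listed, and it fell. Ntf3 encodes neurotrophin 3, the ligand of TrkC, and was at 96.7 and 85.6 normalized counts in doxycycline libraries 2 and 8, against 268 and 249 in vehicle libraries 1 and 7. The change was -1.50 ± 0.17 (limma, adjusted p = 0.0223), and the call was lost without library 2 (adjusted p = 0.0519), 8 (0.0914) or 1 (0.0686). The receptor of that ligand, Ntrk3, did not pass, as given above.

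Of 12 other receptors and co-receptors 10 were listed and 1 fell. Ncam1, the neural cell adhesion molecule that also serves as an alternative GDNF receptor with GFRα1, fell by 0.97 ± 0.11 on the log2 scale (limma, adjusted p = 0.0220), and not with no intensity trend (adjusted p = 0.0649). Of the 10 values 6 were below 0 and 4 above. Sorcs3 had the smallest p of those that did not pass, with a change of 0.86 ± 0.25 without overlap (limma, adjusted p = 0.136). Sort1 encodes sortilin, the partner of p75 in binding proneurotrophins, and had a change of -0.14 ± 0.10, which did not pass (limma, adjusted p = 0.497).

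Of 31 adaptors and early signalling proteins of RET and the TRK receptors 28 were listed and 2 fell, with a median of -0.02. They were the adaptor gene Shc2, at -0.43 ± 0.06 (limma, adjusted p = 0.0395), and Pik3r1, the regulatory subunit of phosphoinositide 3-kinase, at -0.48 ± 0.08 (limma, adjusted p = 0.0464). Both calls were lost whichever library was left out, with adjusted p between 0.0506 and 0.208. Gab2 (-0.71 ± 0.12) and the RET adaptor gene Dok5 (0.53 ± 0.10) came next by p and did not pass. None of the 12 p75 partner genes passed in limma, with a median of -0.01, and Ndn, which encodes necdin, had the largest change, -0.60 ± 0.10.

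Of 14 feedback and target genes of receptor tyrosine kinase signalling 11 were listed and 2 fell, with a median of -0.35. Dusp4, a phosphatase that restrains MAP kinases, was at 1280 and 1003 normalized counts with doxycycline, against 2827 and 2765 with vehicle, a change of -1.30 ± 0.12 (limma, adjusted p = 0.0164). Its call stood whichever library was left out. Etv5, an ETS factor, changed by -0.75 ± 0.12 (limma, adjusted p = 0.0458), and that call was lost whichever library was left out, with adjusted p between 0.0543 and 0.200. Etv4, the related ETS factor known to be induced by GDNF in limb motor neurons, had a change of -0.45 ± 0.15 (limma, adjusted p = 0.172) and did not pass.

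**Figure D3:**
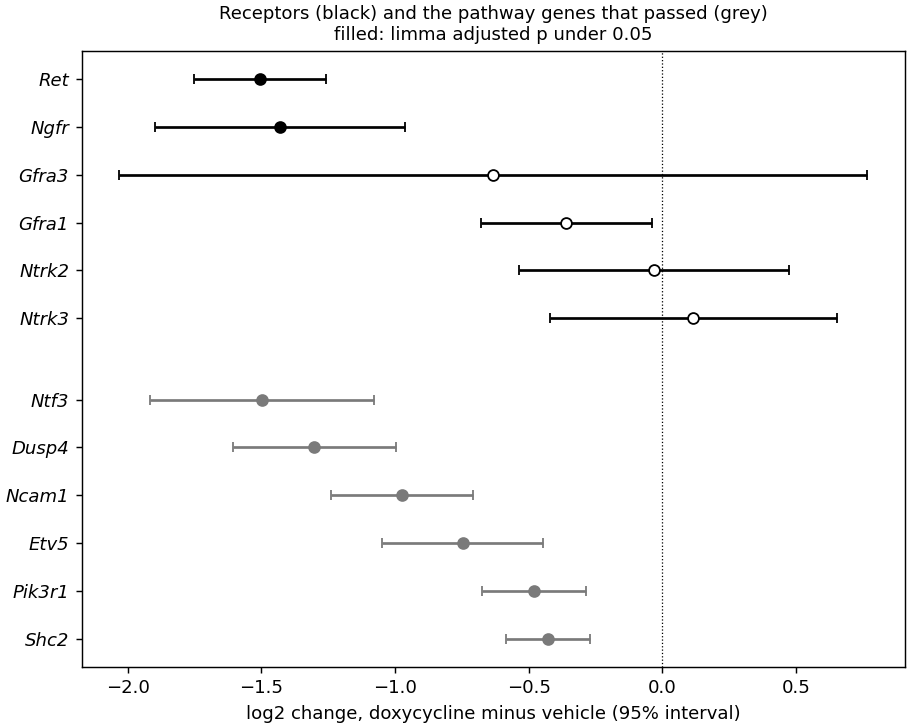
Log2 change of normalized count + 1, doxycycline minus vehicle, with 95% limma intervals (x axis), for the 6 receptors (black) and the 6 pathway genes that passed the test (grey); filled points passed at an adjusted p under 0.05. Ret, Ngfr, Ntf3 and Dusp4 lie between -1.51 and -1.30, and the interval of Gfra3 is the widest.

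**Figure D4:**
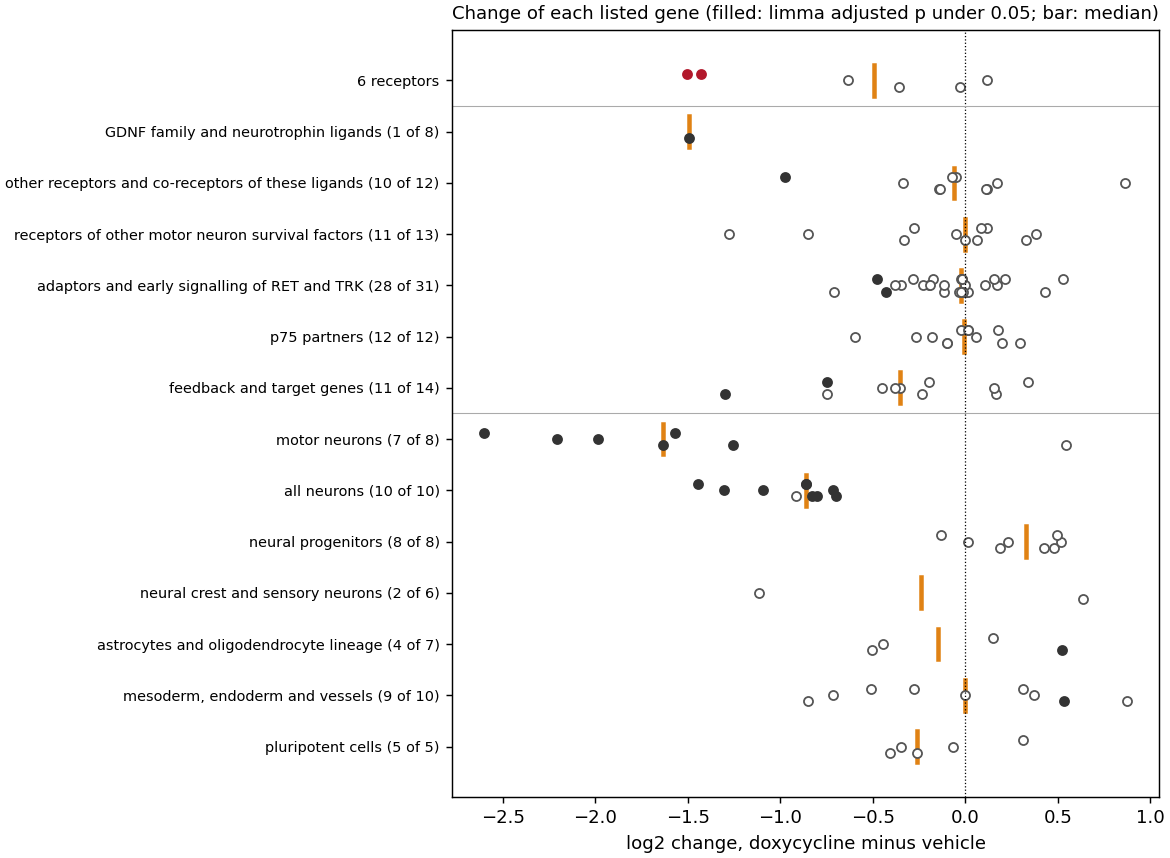
Log2 change, doxycycline minus vehicle, of each listed gene (x axis) in the receptors, 6 pathway lists and 7 cell type marker lists, with listed and total numbers of genes in brackets, filled points for an adjusted p under 0.05 in limma and orange bars for medians. The motor neuron list has the lowest median, -1.63, after which come the single ligand, Ntf3, and the list of all neurons.

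Genes whose profile over the 4 libraries was most like that of a receptor were found by the Euclidean distance between centred log2 profiles, 3 for each receptor. Nearest to Ret was Ntf3, at a distance of 0.131, followed by Fam196a at 0.140 and Gap43, the growth cone gene, at 0.141. Nearest to Ngfr were Slc10a4 at 0.129, a vesicular protein of cholinergic neurons, Akap6 at 0.162 and the row of Nrp1, a semaphorin and VEGF receptor, at 0.189. The rows nearest to Gfra1 were Mapk8, Fnbp1l and Kifap3, at distances of 0.025 to 0.028. Nearest to Gfra3 were Tdh at 0.143, the threonine dehydrogenase of mouse embryonic stem cells, Clgn at 0.346 and the Nodal antagonist gene Lefty1 at 0.363. Ntrk2 lay nearest to Ccrn4l, Prune2 and Lsmd1, and Ntrk3 nearest to Nhedc1, Lactb and Etl4, with distances between 0.0073 and 0.061. With 4 libraries in 2 groups, genes with the same change and the same gap between libraries are close by construction.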

How the data were processed

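Total RNA was made into libraries by the TruSeq protocol and run on a HiSeq 2000, per the labels' protocols. Per the submitters' processing notes the tools were CASAVA, TopHat2, HTSeq and DESeq and the build mm9, without versions or order. The values deposited by the authors are a signal: gene counts that appear to have been scaled by a size factor per library. All values (100%) fall within 0.1 of a multiple of a step specific to their column, taken as 1 read, from which reads were estimated. With few values close to the step these were not treated as recovered counts, and no count model was used. All rows reach 101 estimated reads in some library, so nothing can be said of genes with no row. Whether counting used strand is not stated.

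Columns were assigned to groups by the treatment initials in their names, and their numbers differ from the replicate numbers in the labels. The libraries of each group were distinct (chi-square per degree of freedom 28.3 for 2 and 8, 26.4 for 1 and 7). The log2(normalized count + 1) of all 11747 rows was tested with limma 3.58.1 (R 4.3.3), two-sided, with intensity trend and Benjamini-Hochberg adjustment at 0.05, leaving 2 residual and adding 3.83 prior degrees of freedom. A row mean of at least 10 was required and removed no row. The limma fit was also run on simulated data with libraries drawn independently, so it was not checked for libraries that deviate together. This scale understates the change of low genes.

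The receptors and lists were chosen with earlier results of these data known. Named genes are the receptors, the markers, pathway genes that passed and some of those with the smallest p in their list. The 3 nearest profiles per receptor among rows with a mean of at least 50 are also named. Sort1, Cntfr, Lifr and Il6st were named outside this rule. Promoters came from RefSeq. The induced gene and 2 genes of the lists are not reported here. Other settings tried were pseudocounts of 0.5 and 5, a row mean of at least 50 or no minimum, quantile and TMM scaling, no trend, robust empirical Bayes, leaving out each library, and a pairing of libraries. Software was Python 3.11.15 with pandas 2.3.3, numpy 2.4.6, scipy 1.17.1 and matplotlib 3.10.9.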

Additional observations from a re-analysis of the deposited data

How the results depend on the processing

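Ret kept its direction and its call under all 13 alternatives, and Ngfr kept its direction under all of them and its call under all but the 3 given with it. Pseudocounts, filters and TMM factors changed no call of a receptor or pathway gene. Quantile normalization changed no receptor call, and left 4 of the 6 pathway genes called. With no intensity trend 105 genes passed, 78 of them lower, with 1 receptor and 3 pathway genes. Of the 6 only Ntf3 and Dusp4 kept the call there. This and the later counts of pathway genes are out of all 73 listed, not out of the 6. With robust empirical Bayes 419 genes passed, 287 of them lower, with 1 receptor and 9 pathway genes. Leaving out 1 library, which leaves a lone library assumed to vary like the others, gave between 44 and 494 calls over all genes, 42 to 338 of them lower. It left 1 to 2 receptors and 2 to 7 pathway genes called. Over the 4 such fits 5 values that did not pass took the other sign: Gfra3 at 0.015 without library 8 and 0.026 without library 1, Ntrk2 at 0.18 without library 1, and Ntrk3 at -0.058 without library 2 and -0.090 without library 7. Gfra3 ranged from -1.29 to 0.026, Ntrk2 from -0.24 to 0.18 and Ntrk3 from -0.090 to 0.32, and the cause was not tested.

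With a replicate block that pairs library 2 with 1 and 8 with 7, 3508 genes passed, 1872 of them lower, with 4 receptors and 35 pathway genes. Gfra1 and Gfra3 were then called lower (limma, adjusted p = 0.00405 and 0.00407). Deviations of paired libraries from their group means correlated at 0.63, but nothing in the labels says what the column numbers stand for, and this fit has 1 residual degree of freedom and takes each gene's spread from the trend over all genes. At 74 to 283 estimated reads per library, Gfra3 is also the receptor with the thinnest counts in its lowest library.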

Other observations

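Receptors for other survival factors of motor neurons were also measured. Of 13 such genes 11 were listed, and none passed the test in limma, with a median log2 change of -0.0028. Nrp1, a receptor for semaphorins and VEGF, came nearest, at 1276 and 841 normalized counts in doxycycline libraries 2 and 8, against 2928 and 2151 in vehicle libraries 1 and 7 (limma, adjusted p = 0.0553). Fgfr1 came next by p, with a change of 0.33 ± 0.08 without overlap (limma, adjusted p = 0.0886). Of the 11 values 6 were below 0 and 5 above. Cntfr, the receptor subunit that binds ciliary neurotrophic factor, was at 5220 and 4544 with doxycycline, against 5292 and 4098 with vehicle. Its signalling partners Lifr and Il6st had changes of -0.28 ± 0.39 and -0.0028 ± 0.12, and Lifr was higher in library 8 than in 2 and in 7 than in 1, the opposite of the 6 neurotrophic factor receptors.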
